A study of Mus musculus with 18 samples.

Results

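Ribosomes are built in the nucleolus, where RNA polymerase I (Pol I) copies the ribosomal DNA into a long precursor RNA. Small nucleolar ribonucleoprotein particles (snoRNPs) modify this precursor, and a large set of processing and assembly factors cuts it and turns it into the small and the large ribosomal subunit. In the heart the pathway is known for its link to cell growth, and its genes are classical targets of the transcription factor Myc.

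The 40 ribosome biogenesis genes described here were taken from a list of gene symbols by their role in this pathway. Each was matched to 1 feature of the deposited array table by its symbol and Entrez gene identifier, so that they make up 40 of 24479 features. They comprise 4 genes of Pol I transcription, 3 proteins of box C/D snoRNPs, 4 of box H/ACA snoRNPs, 12 factors of small-subunit maturation, 12 of large-subunit maturation and 5 nucleolar chaperones and regulators.

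The study hybridised left ventricular RNA to 18 Affymetrix arrays, 3 for each of 6 groups of mice. FFFF mice carry loxP-flanked alleles of both the delta and the gamma gene of calcium/calmodulin-dependent kinase II (CaMKII) without Cre and are labelled wild-type. DKO mice carry the same floxed alleles together with Cre under the α-MHC promoter, which is active in cardiomyocytes, so that the other cells of the ventricle keep both genes. Both genotypes are on a mixed background of 129/Sv and C57BL/6. Hearts were taken after sham surgery, or 1 day or 5 days after ischemia/reperfusion (I/R) in which the left anterior descending artery was tied for 60 min. The labels give neither the age of the mice nor the day on which sham hearts were taken, and they do not name the animal behind an array, so the p-values below measure the spread between arrays. In such bulk tissue, a change in the number of cells of one type and a change in RNA per cell cannot be told apart.

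The values are log2 expression values, on which a difference of 1 is a doubling. The arrays share one distribution, and the 12 cardiomyocyte markers of a fixed list averaged between 11.65 and 12.82 in every array. The lowest of these averages belonged to an FFFF array at 5 days, and the averages at that day are given below. The labels were checked on the targeted genes. In the library labelled DKO I/R 1 day replicate 1, Camk2d was at 9.71 and Camk2g at 7.10, within the FFFF range of 9.27 to 9.85 and of 6.76 to 7.70, while the other DKO arrays held 7.90 to 9.27 and 5.46 to 6.46. This library goes against its label, and what was counted or called in DKO hearts against sham at 1 day is therefore given with and without it. By Xist and Y-linked transcripts, 2 of the 3 arrays at 5 days in each genotype came from males and all other arrays from females.

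The first place to look at the genes themselves was the sequence around their start sites, because the palindrome CACGTG, known as the E-box and bound by Myc with its partner Max, is the classical element of this gene class. RefSeq promoter windows of build GRCm38.p6, from 250 bases before to 50 bases after the annotated start, were at hand for 34 of the 40 genes. CACGTG, which reads the same on both strands, lay in the windows of 8 of them (23.5%), against 8.09% of 27025 genes with a window. The 9 sites in these 8 genes are shown so that their letters can be set beside the responses described below, with 27 bases on each side before the start site and at most 12 after it. They are written 5′ to 3′ on the gene's own strand, and capitals mark the motif.
Rrn3, upstream site, chr16:13780457-13780516, plus strand: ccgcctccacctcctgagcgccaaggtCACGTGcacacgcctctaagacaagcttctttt
Rrn3, downstream site, chr16:13780624-13780683, plus strand: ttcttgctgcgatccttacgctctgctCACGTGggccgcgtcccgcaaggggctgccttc
Utp20, chr10:88826765-88826789, minus strand: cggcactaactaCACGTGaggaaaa
Wdr43, chr17:71616220-71616249, plus strand: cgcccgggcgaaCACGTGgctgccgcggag
Imp4, chr1:34439681-34439740, plus strand: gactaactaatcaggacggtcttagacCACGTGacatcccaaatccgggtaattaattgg
Pno1, chr11:17211540-17211564, minus strand: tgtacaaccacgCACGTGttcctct
Nop2, chr6:125131796-125131855, plus strand: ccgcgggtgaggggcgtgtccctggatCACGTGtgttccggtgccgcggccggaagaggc
Pes1, chr11:3963965-3963994, plus strand: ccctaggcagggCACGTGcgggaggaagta
Mybbp1a, chr11:72441355-72441376, plus strand: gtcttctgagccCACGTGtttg

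In Rrn3 the motif began 215 and 48 bases before the annotated start, in Imp4 121 and in Nop2 60 bases before it. In Pes1, Wdr43, Utp20, Pno1 and Mybbp1a it began after the start, at bases 3, 18, 38, 38 and 41 of the transcript. Of the 18 genes with a window that passed the test for a rise at 1 day in FFFF hearts, 5 held the motif, and so did 3 of the 16 that did not pass. The match is a description of letters in a window and not a binding site.

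One day after I/R, most ribosome biogenesis genes stood higher in FFFF hearts than after sham surgery. Of the 40 genes, 21 rose and none fell (limma, Benjamini-Hochberg adjusted p under 0.05 over all features), where 5.93% of all features rose. The median log2 difference of the 40 was 0.78, against -0.01 over all features, and the single differences ranged from -0.05 to 1.80. In 36 of the 40 every 1 day array lay above every sham array, which held for 15.7% of all features. The count of 21 depended on single arrays while the median did not: it was 5, 4 and 6 without FFFF sham replicate 1, 2 or 3, 1 without FFFF 1 day replicate 1 and 5 without replicate 3, with medians of 0.70 to 0.89 over all arrays left out in turn.

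**Figure D1:**
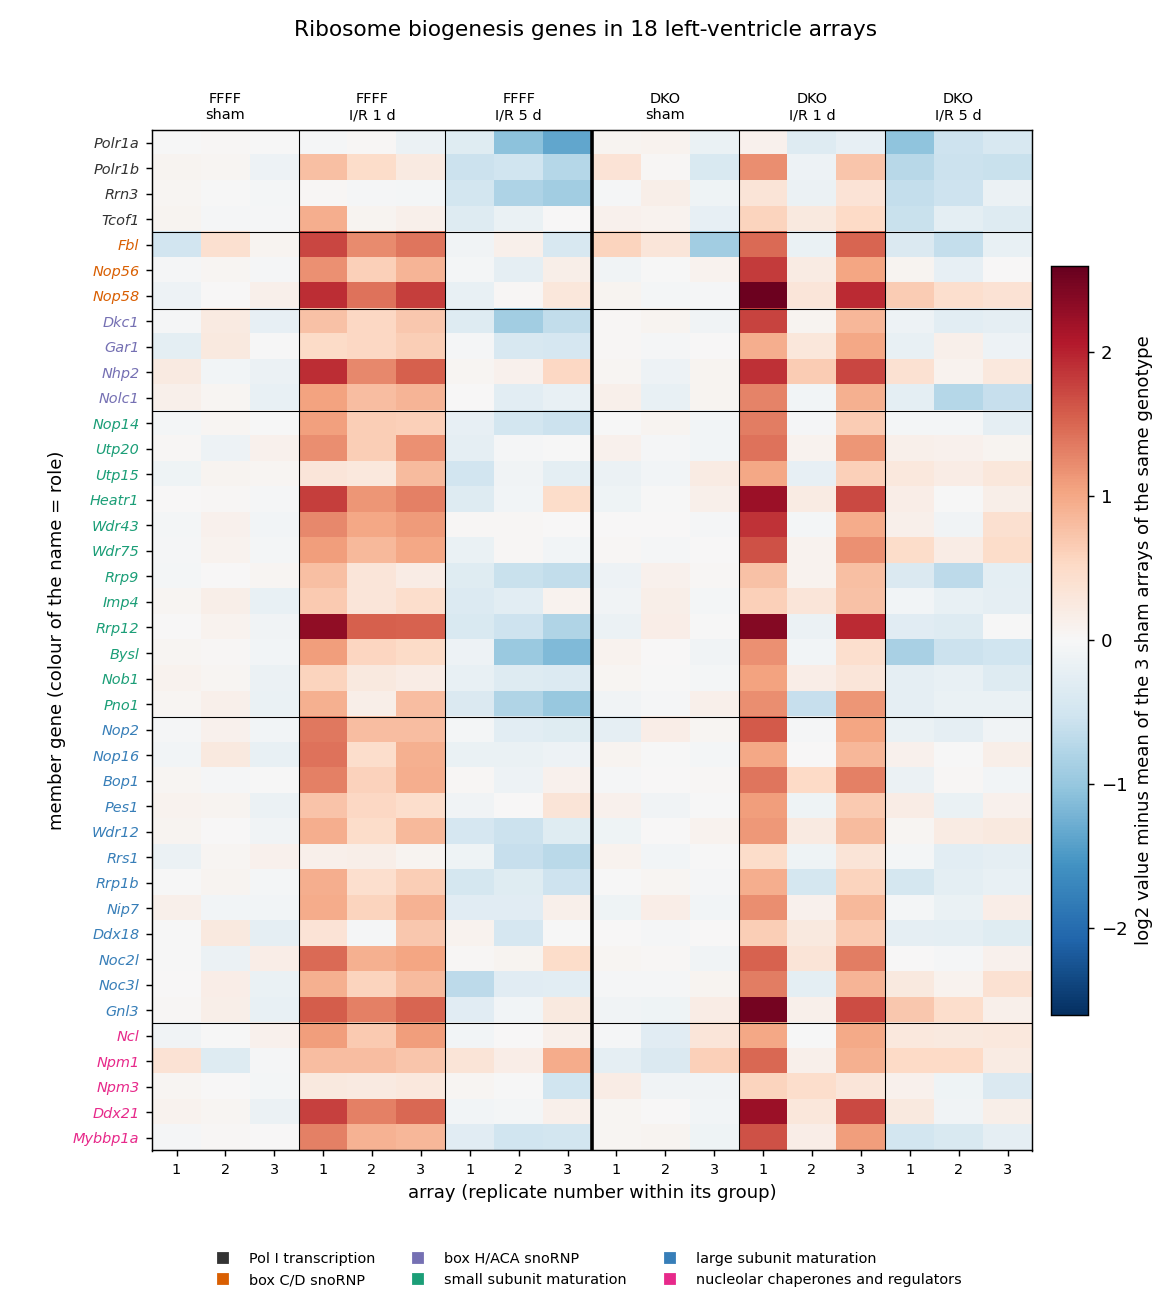
Heat map of the 40 genes (rows, ordered and coloured by role) in the 18 arrays (columns), as log2 value minus the mean of the 3 sham arrays of the same genotype, red for higher and blue for lower. The 3 FFFF arrays at 1 day are red in nearly every row, DKO at 1 day is red in replicates 1 and 3 and pale in replicate 2, and the arrays at 5 days are mostly pale or blue.

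Of the genes of Pol I transcription 0 of 4 were called at 1 day in FFFF hearts, with a median difference of 0.18. Polr1a, which encodes the largest catalytic subunit of Pol I, was at 8.47, 8.51 and 8.47 in the FFFF sham arrays, at 8.46, 8.51 and 8.34 at 1 day, and at 8.17, 7.41 and 7.12 at 5 days. The 1 day values thus lay among or just under the sham values and all 5 day values lay below both. The difference was -0.05 ± 0.22 (SE) at 1 day (adjusted p = 0.93) and -0.92 ± 0.22 at 5 days (adjusted p = 0.011), a 1.89-fold fall from sham to 5 days. Rrn3, the factor that brings Pol I to its promoter and the gene with the motif in its window at 2 places, read 8.96, 8.91 and 8.87 after sham, 8.95, 8.88 and 8.85 at 1 day and 8.44, 8.12 and 8.00 at 5 days. Its sham and 1 day arrays overlapped, and its 5 day arrays were lower than all of them (-0.73 ± 0.15 against sham, adjusted p = 0.0055). For Polr1b, the second-largest subunit, the 1 day difference was 0.50 ± 0.27 with no overlap between the groups (adjusted p = 0.27). For Tcof1, whose product treacle supports transcription of ribosomal DNA, it was 0.39 ± 0.19 (adjusted p = 0.23), with 7.46 in 1 day replicate 1 and 6.58 and 6.64 in the other two.

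Among the proteins of box C/D particles, whose RNAs guide methylation of ribosomal RNA, 2 of 3 rose at 1 day in FFFF hearts. Nop58, a core protein of these particles, was at 7.82, 7.95 and 8.07 after sham and at 9.86, 9.35 and 9.74 at 1 day, and had returned to 7.75, 7.98 and 8.24 at 5 days. Every 1 day array lay more than 1 log2 unit above every sham array, a 3.26-fold rise (1.71 ± 0.38, adjusted p = 0.015). Fbl, the methyltransferase of the particle, had sham values of 5.09, 6.00 and 5.64 and 1 day values of 7.32, 6.80 and 6.97. Its sham arrays were spread more widely than those of any other of the 40 genes, with an SD of 0.461, and the rise of 1.45 ± 0.43 passed narrowly (adjusted p = 0.045). Nop56, the partner of Nop58, missed the threshold with 0.90 ± 0.28 (adjusted p = 0.052), although its 1 day values of 10.16, 9.60 and 9.85 all exceeded its sham values of 8.95, 9.03 and 8.95.

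Of the proteins listed with box H/ACA particles, whose RNAs guide the change of uridine to pseudouridine, Nhp2 and Nolc1 rose. Nhp2, a core RNA-binding protein, had the smallest p of the 40 genes at 1 day. It read 7.37, 7.06 and 6.98 after sham, 9.05, 8.39 and 8.69 at 1 day, and 7.18, 7.25 and 7.68 at 5 days. The 1 day rise was 2.97-fold (1.57 ± 0.26, adjusted p = 0.0042), and the 5 day arrays again overlapped the sham arrays. Nolc1, a chaperone of snoRNPs and not a core protein of these particles, rose by 0.91 ± 0.25 (adjusted p = 0.034). Dkc1, the pseudouridine synthase, and Gar1 differed by 0.67 ± 0.29 and 0.55 ± 0.18 and did not pass (adjusted p = 0.16 and 0.056).

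**Figure D2:**
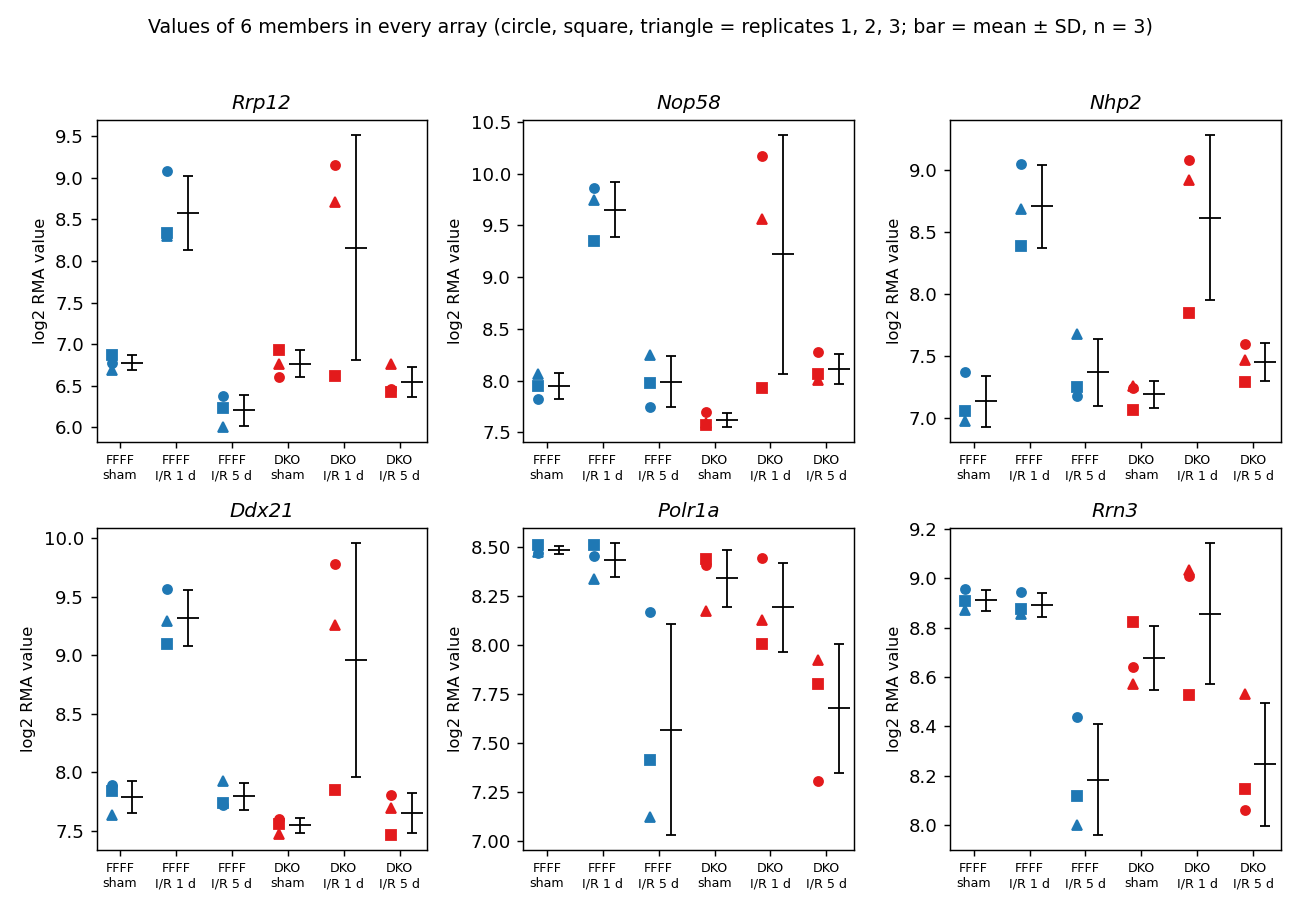
Log2 values of 6 of the genes in each array by group (FFFF blue, DKO red, symbols for replicate numbers), with the mean and SD of the 3 arrays beside them in black. Rrp12, Nop58, Nhp2 and Ddx21 are high in the 3 FFFF arrays at 1 day and in DKO replicates 1 and 3 at 1 day, while Polr1a and Rrn3 lie at the FFFF sham level at 1 day in FFFF hearts and below it at 5 days.

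All 12 factors of small-subunit maturation lay higher in every FFFF 1 day array than in every sham array, and 7 passed the test. Rrp12, which in yeast is needed for export of the subunits from the nucleus, showed the highest difference of the 40 genes. Its sham values were 6.78, 6.87 and 6.68, its 1 day values 9.08, 8.34 and 8.30, and its 5 day values 6.38, 6.24 and 6.00. It thus rose 3.48-fold at 1 day (1.80 ± 0.45, adjusted p = 0.024), and its 5 day arrays lay below all sham arrays by a difference that did not pass (-0.57 ± 0.45, adjusted p = 0.46). Heatr1, Wdr43 and Wdr75, proteins that join the precursor RNA at the start of small-subunit assembly, rose by 1.42 ± 0.37, 1.12 ± 0.32 and 0.97 ± 0.26 (adjusted p = 0.027, 0.036 and 0.030). Utp20 and Nop14, further components of the early processing particle, rose by 1.01 ± 0.25 and 0.78 ± 0.24 (adjusted p = 0.022 and 0.049). The smallest called rise was that of Imp4, a protein of the U3 particle, from 7.84, 7.95 and 7.59 to 8.48, 8.12 and 8.26 (0.49 ± 0.14, adjusted p = 0.040).

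The other 5 small-subunit factors were not called at 1 day. Nob1, the nuclease that makes the final cut at the end of the small-subunit RNA, differed by 0.34 ± 0.17 (adjusted p = 0.24), and its partner Pno1 by 0.63 ± 0.36 (adjusted p = 0.31). Bysl, Utp15 and the U3 protein Rrp9 differed by 0.71, 0.47 and 0.42 with adjusted p of 0.13, 0.24 and 0.16.

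Of the 12 large-subunit factors 7 rose and all differences were above 0. Bop1 and Wdr12, which work together with Pes1 in one complex on the large-subunit precursor, both rose. Bop1 went from 6.84, 6.75 and 6.77 after sham to 8.11, 7.40 and 7.73 at 1 day and back to 6.83, 6.66 and 6.89 at 5 days, with the 5 day arrays on both sides of the sham arrays. That is a 1.94-fold rise at 1 day (0.96 ± 0.20, adjusted p = 0.0099). Wdr12 rose by 0.76 ± 0.17 (adjusted p = 0.017), whereas Pes1, at 0.58 ± 0.22, did not pass (adjusted p = 0.11) despite groups that did not overlap.

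Gnl3, or nucleostemin, a nucleolar GTPase, read 7.31, 7.43 and 7.08 after sham and 8.85, 8.59 and 8.80 at 1 day, a 2.77-fold rise (adjusted p = 0.032). Noc2l, Nop2, an RNA methyltransferase, Nop16 and Nip7 rose by 1.14, 1.00, 0.94 and 0.82 (adjusted p = 0.013, 0.042, 0.025 and 0.029). Rrs1, which acts in assembly of the large subunit in yeast, was the lowest of the 12 at 1 day. It read 5.72, 5.93 and 5.98 after sham, 6.00, 6.04 and 5.95 at 1 day and 5.77, 5.27 and 5.17 at 5 days. Its sham and 1 day arrays overlapped (0.12 ± 0.16, adjusted p = 0.72). Noc3l, Rrp1b and the helicase Ddx18 differed by 0.77, 0.68 and 0.34 (adjusted p = 0.090, 0.094 and 0.26), and Ddx18 overlapped with sham as well.

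Among the nucleolar chaperones and regulators 3 of 5 rose. Ddx21, an RNA helicase of the nucleolus, was at 7.89, 7.84 and 7.64 after sham, at 9.57, 9.09 and 9.29 at 1 day and at 7.72, 7.73 and 7.93 at 5 days, so that only the 1 day arrays stood apart. It rose 2.88-fold at 1 day (1.52 ± 0.33, adjusted p = 0.013). Mybbp1a, a nucleolar protein that binds transcription factors, and Ncl, or nucleolin, an abundant RNA-binding protein of the nucleolus, rose by 1.02 ± 0.25 and 0.95 ± 0.22 (adjusted p = 0.022 and 0.017). Npm1 and Npm3, histone chaperones of the nucleophosmin family, differed by 0.77 ± 0.33 and 0.25 ± 0.15 and did not pass (adjusted p = 0.15 and 0.32). Npm1 has near-identical processed copies elsewhere in the genome, and it is not known whether the custom probe assignment removed shared probes, so its values are uncertain.

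**Figure D3:**
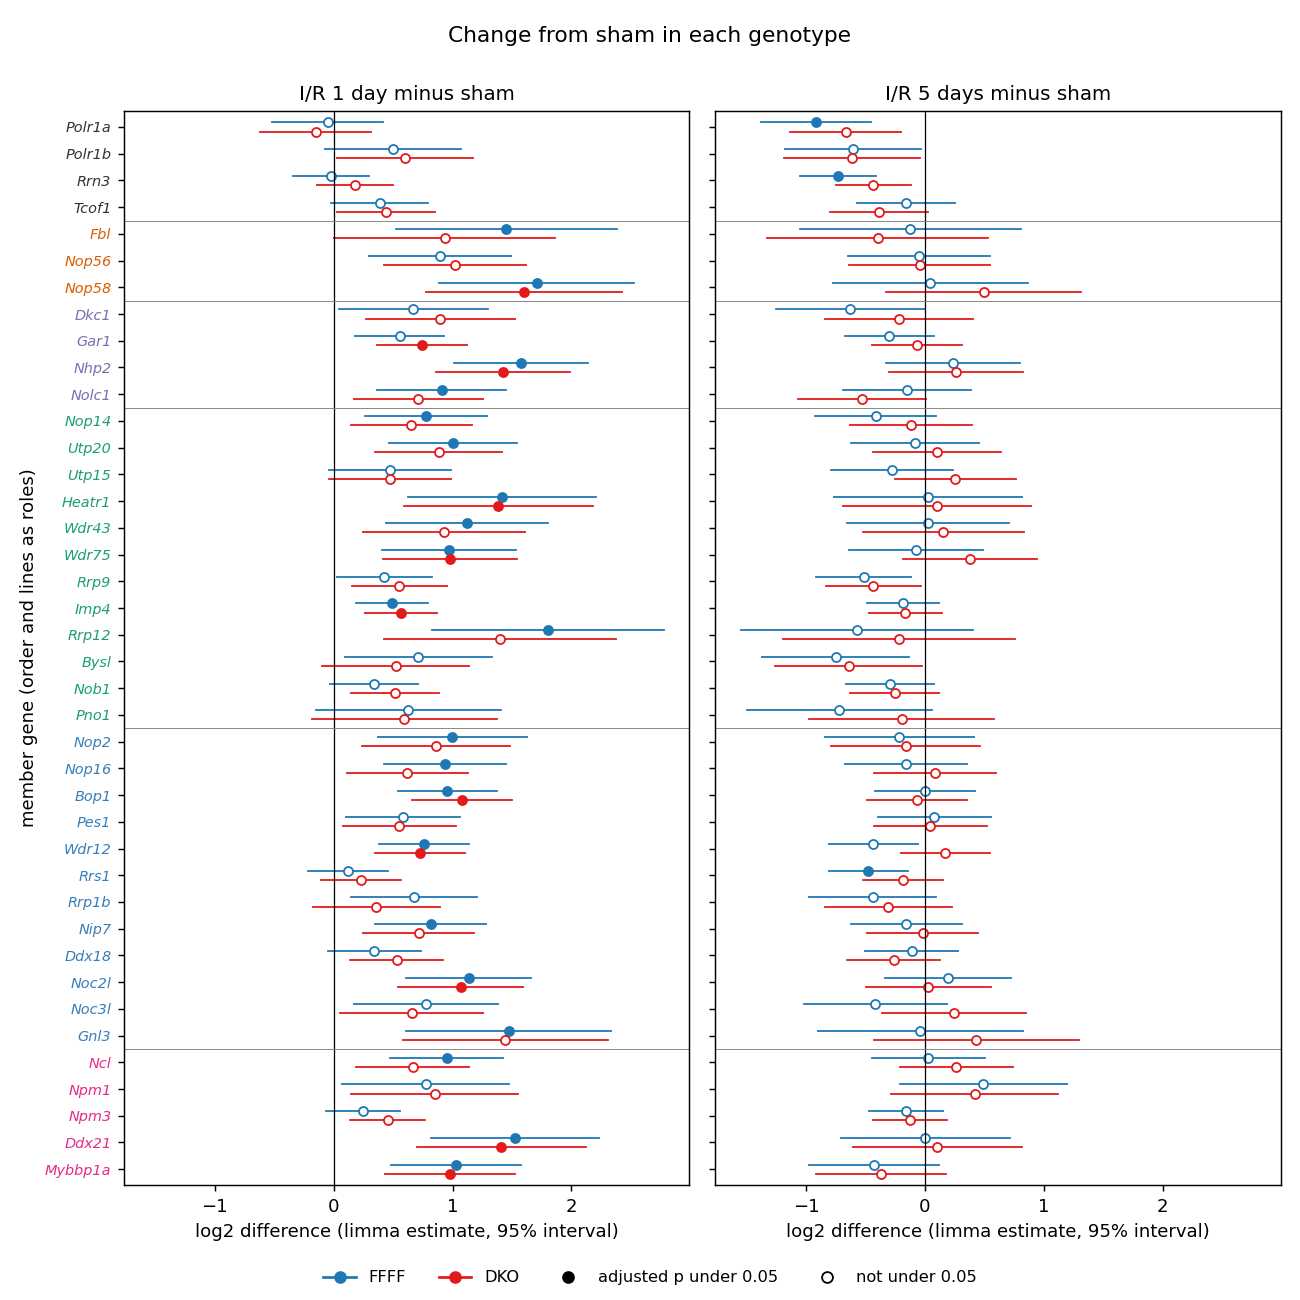
Log2 difference from sham at 1 day (left) and at 5 days (right) for the 40 genes, FFFF in blue and DKO in red, with the 95% interval of the limma fit. Filled points have an adjusted p under 0.05, which are 21 FFFF and 11 DKO points at 1 day and 3 FFFF points at 5 days.

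In DKO hearts the same comparison gave 11 genes higher at 1 day and none lower, where 2.58% of all features rose, with a median difference of 0.72 against 0.01 over all features. Called in both genotypes were Nop58, Nhp2, Heatr1, Wdr75, Imp4, Bop1, Wdr12, Noc2l, Ddx21 and Mybbp1a, which are 10 of the 21 FFFF genes and 10 of the 11 DKO genes. The 11th was Gar1, with 0.75 ± 0.18 (adjusted p = 0.029) against 0.55 ± 0.18 in FFFF. By role these were 0 of 4 Pol I genes, 1 of 3 box C/D, 2 of 4 box H/ACA, 3 of 12 small-subunit, 3 of 12 large-subunit and 2 of 5 chaperone genes. The sham and 1 day arrays did not overlap in 17 of the 40 genes, against 11.4% of all features, and without replicate 1 in 17 genes as well, against 14.7%. The 11 calls changed with most arrays: 0 were made without DKO 1 day replicate 1, 34 without replicate 2 and 2 without replicate 3, 2, 1 and 2 without DKO sham replicate 1, 2 or 3, 7 without FFFF sham replicate 1 and 7 without DKO 5 day replicate 2.

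The 3 DKO arrays at 1 day were far apart. Replicate 2 had the lowest value of its group in 39 of the 40 genes, and replicate 1 the highest in 34. In replicates 1 and 3, 40 and 39 genes lay above all 3 DKO sham arrays, but in replicate 2 only 17, with 9 below all of them. The median deviation from the DKO sham mean was 1.26, 0.09 and 0.90 in replicates 1, 2 and 3, while in the FFFF arrays it was 1.00, 0.58 and 0.82. The median SD over the 40 genes was 0.674 among the DKO 1 day arrays and 0.253 among the FFFF 1 day arrays, against 0.142 and 0.117 over all features. The DKO values include replicate 1, the library that goes against its label, and were not computed without it. Rrp12 shows the split: 9.16, 6.62 and 8.71 at 1 day, so that replicate 2 lay within the DKO sham values of 6.61, 6.93 and 6.76. Its difference of 1.40 ± 0.45 did not pass (adjusted p = 0.088).

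Nhp2 and Bop1 were the 2 genes still called without DKO 1 day replicate 3, and in both replicate 2 was above sham too. Nhp2 read 9.08, 7.85 and 8.92 at 1 day against 7.25, 7.07 and 7.27 after sham (1.43 ± 0.26, adjusted p = 0.012). Bop1 read 8.19, 7.31 and 8.11 against 6.75, 6.79 and 6.83 (1.08 ± 0.20, adjusted p = 0.011). Nop58, with 10.17, 7.93 and 9.56 at 1 day against 7.70, 7.57 and 7.59, and Ddx21, with 9.78, 7.84 and 9.25 against 7.60, 7.56 and 7.48, were also above sham in all 3 arrays (1.60 ± 0.38 and 1.41 ± 0.33, adjusted p = 0.031 and 0.029). Without replicate 1, the library that goes against its label, the median difference was 0.47 and 39 of 40 genes still differed upward, but none was called, where 0.437% of all features were called higher. Nhp2 and Bop1 then differed by 1.19 and 0.92 (adjusted p = 0.058 and 0.057). Without replicate 2 the median was 1.06, and without replicate 3 it was 0.63.

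Between 1 and 5 days the genes fell back. In FFFF hearts 32 of 40 were lower at 5 days than at 1 day and none higher, where 3.2% of all features were lower. The median difference was -1.08 (all features -0.01), all 40 differences were below 0, and in 38 genes the groups did not overlap, against 11.1% of all features. By role 3 of 4 Pol I genes, 2 of 3 box C/D, 4 of 4 box H/ACA, 10 of 12 small-subunit, 10 of 12 large-subunit and 3 of 5 chaperone genes fell, and the 8 that did not pass were Tcof1, Nop56, Utp15, Wdr43, Pes1, Ddx18, Npm1 and Npm3. This comparison shares its 1 day arrays with the one against sham. The count was 4 and 13 without FFFF 1 day replicate 1 or 3, 5 and 12 without FFFF 5 day replicate 2 or 3, and 8 with sex as a covariate. The one FFFF female at 5 days had a mean over the 40 genes of 7.04, beside 7.06 and 6.97 in the males and 7.89 to 8.29 in the females at 1 day.

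The steepest fall from 1 to 5 days in FFFF hearts was that of Rrp12, 5.17-fold (-2.37 ± 0.45, adjusted p = 0.0093). Wdr12 had the smallest p: from 6.84, 6.36 and 6.73 at 1 day it fell to 5.44, 5.34 and 5.57, all below its sham values of 5.96, 5.89 and 5.80 (-1.19 ± 0.17, adjusted p = 0.0026). Mybbp1a and Nhp2 fell by 1.45 and 1.34 on the log2 scale (adjusted p = 0.0063 and 0.010). Polr1a, Rrn3 and Rrs1, none of which had passed at 1 day, fell between the days too, by 0.86, 0.71 and 0.59 (adjusted p = 0.031, 0.014 and 0.038).

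In DKO hearts 18 genes were lower at 5 days than at 1 day, where 2.14% of all features were lower. The median was -0.79 (all features -0.02), all 40 differences were below 0, and 22 genes had groups that did not overlap, against 12.2% of all features. Bop1, Mybbp1a, Rrp9 and Imp4 had the smallest p. Bop1 fell from 8.19, 7.31 and 8.11 to 6.64, 6.81 and 6.73 (-1.14 ± 0.20, adjusted p = 0.0083), without overlap, and Mybbp1a from 10.06, 8.58 and 9.50 to 7.92, 8.01 and 8.17 (-1.35 ± 0.25, adjusted p = 0.012). Rrp9 and Imp4 fell by 0.99 ± 0.19 and 0.73 ± 0.14 (adjusted p = 0.012 and 0.014). Without DKO 1 day replicate 1, the library that goes against its label, Rrp9 and Imp4 did not pass (-0.88 and -0.71, adjusted p = 0.0595 and 0.0585). The genes then called were Nob1, Bop1 and Mybbp1a. The count of 18 was 3, 36 and 7 without DKO 1 day replicate 1, 2 or 3, 5, 3 and 6 without DKO 5 day replicate 1, 2 or 3, and 2 with sex as a covariate, and without replicate 1 at 1 day the median was -0.58. The DKO female at 5 days had a mean of 7.07 over the 40 genes, beside 7.05 and 6.99 in the males.

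At 5 days the genes lay at or slightly under sham. In FFFF hearts 3 fell and none rose, where 10% of all features fell, so the share of the 40 genes was below that of all features. The 3 were Polr1a, Rrn3 and Rrs1, the last with a difference of -0.47 ± 0.16 (adjusted p = 0.049) and 1 of its 5 day arrays within the sham values. In both genotypes all sham arrays came from females and 2 of the 3 arrays at 5 days from males, so sex differed between the groups compared. In the FFFF female at 5 days, replicate 3, these genes read 7.12, 8.00 and 5.17, each below all FFFF sham arrays. The median was -0.16 (all features -0.02), and in 14 genes the 5 day arrays all lay below the sham arrays, against 18.5% of all features. The 3 calls became 5, 1 and 1 without FFFF 5 day replicate 1, 2 or 3, and 5 and 11 without DKO 1 day replicate 1 or 2. Rrp9 and Bysl, at -0.51 ± 0.19 and -0.75 ± 0.29, did not pass (adjusted p = 0.074 and 0.090). Dkc1 read 7.48, 7.75 and 7.30 after sham and 7.17, 6.61 and 6.88 at 5 days (-0.63 ± 0.29, adjusted p = 0.17).

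In DKO hearts no gene was called at 5 days (limma), where 6.07% of all features were, and 5 (Polr1a, Polr1b, Rrn3, Rrp9 and Bysl) had an unadjusted p under 0.05, against 23% of all features. The gene-wise analysis of variance called none either, while 1 was called without FFFF 5 day replicate 1 or 3 or DKO 5 day replicate 3 and 2 without DKO 1 day replicate 2. The median was -0.09 (all features -0.02), and 13 genes had no overlap with sham on the low side, against 18.2% of all features. Polr1a read 7.30, 7.80 and 7.92 against 8.41, 8.44 and 8.17 after sham, lower in every array (-0.67 ± 0.22, adjusted p = 0.081), and Rrn3 differed by -0.43 ± 0.15 (adjusted p = 0.095). All 4 Pol I genes were lower in every DKO 5 day array than in every DKO sham array. Nop58 lay the other way, at 8.28, 8.06 and 8.00 against 7.70, 7.57 and 7.59, with no overlap (0.50 ± 0.38, adjusted p = 0.50). Nolc1, Rrp9 and Ddx18 differed by -0.53, -0.44 and -0.26 (adjusted p = 0.23, 0.18 and 0.44).

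DKO and FFFF hearts were compared at each stage. After sham surgery no gene was called (limma, where 0.00817% of all features were), and 1 had an unadjusted p under 0.05, against 5.96% of all features. The median difference, DKO minus FFFF, was -0.12 (all features 0.00), with 35 of 40 genes lower in DKO, and in 14 genes every DKO array lay below every FFFF array, against 8.07% of all features. Wdr12 was the 1 gene, at 5.36, 5.47 and 5.56 in DKO and 5.96, 5.89 and 5.80 in FFFF hearts (-0.42 ± 0.17, adjusted p = 0.77). Utp15, Rrn3 and Pno1 followed with -0.39, -0.23 and -0.52 (adjusted p = 0.90, 0.91 and 0.95), each without overlap.

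At 1 day no gene was called between the genotypes (limma, where 0% of all features were), and 1, again Wdr12, had an unadjusted p under 0.05, against 6.7% of all features (-0.45 ± 0.17, adjusted p = 0.68). These counts include DKO replicate 1, the library that goes against its label. Without it none was called, but 37 of the 40 genes were lower in DKO. Wdr12 then differed by -0.65 ± 0.16 and Wdr43 by -0.79 ± 0.22 (adjusted p = 0.24 and 0.27). Noc3l, Rrp1b and Nop14 differed by -0.78 ± 0.25, -0.69 ± 0.22 and -0.55 ± 0.18, while 3 of the 40 genes were higher in DKO. How many genes then had an unadjusted p under 0.05 was not counted. The 1 gene against 6.7% therefore describes only the comparison that includes this library. The values that follow are again from all arrays. Nop16, Ncl and Utp15 differed by -0.49, -0.39 and -0.38 (adjusted p = 0.76, 0.80 and 0.81). The median over the 40 genes was -0.22 (all features 0.01) with 32 lower in DKO, and it changed sign with 1 array: it was -0.49 without DKO replicate 1, 0.20 without replicate 2 and -0.25 without replicate 3. In 1 gene, Npm3, all DKO arrays lay above all FFFF arrays (9.273, 9.139 and 9.004 against 8.94, 8.92 and 8.96), against 5.94% of all features. Arrays with the same replicate number deviated together at this day. Within these pairs the median of DKO minus FFFF was 0.14 for number 1, -0.73 for number 2 and 0.02 for number 3. The pair of number 1 holds the library that goes against its label.

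At 5 days no gene was called between the genotypes (limma, 0% of all features) and none had an unadjusted p under 0.05, against 2.41% of all features, with a median of 0.01 (all features 0.00). The smallest p belonged to Noc3l, which read 6.70, 6.54 and 6.83 in DKO and 6.08, 6.48 and 6.49 in FFFF hearts (0.34, 95% interval -0.26 to 0.94). Tcof1, Rrs1 and Noc2l differed by -0.23, 0.17 and -0.26, each with an adjusted p of 1. The difference between the genotypes in the response to I/R was called for no gene at 1 day (0.00409% of all features, limma, and 0 unadjusted against 4.6%), with a median of -0.03 (all features 0.01) that was -0.34 without DKO 1 day replicate 1, 0.32 without replicate 2 and -0.12 without replicate 3. The lowest p values there were those of Npm3, Rrn3, Nop16 and Ncl, with 0.20, 0.20, -0.32 and -0.29 (adjusted p = 0.9995 for each). At 5 days it was called for none either (0% of all features), and 1 of the 40 had an unadjusted p under 0.05, against 4% of all features. The median was 0.12 (all features 0.00), with Wdr12 at 0.61, Noc3l at 0.66, Utp15 at 0.54 and Rrn3 at 0.30 (adjusted p = 0.9987 for each). The gene-wise analysis of variance and all other settings also called 0 of the 40 between the genotypes. With 3 arrays a group these intervals are wide: that of Nop58 in the 1 day response ran from -1.27 to 1.06.

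Other genes of the pathway, from lists that do not contain the 40, were set beside them. Of 48 other small-subunit factors 8 rose at 1 day in FFFF hearts and none fell, and of 47 measured other large-subunit factors 19 rose and none fell, with medians of 0.44 and 0.50. In DKO hearts 7 and 6 rose, and 0 and 0 without the library labelled DKO 1 day replicate 1. Among all features 5.93% rose in FFFF hearts and 2.58% in DKO hearts (0.437% without that library). At 5 days 0 rose and 1 and 6 fell in FFFF hearts, where 10% of all features fell, so these shares lay below and near that of all features. Bms1, a GTPase of the small-subunit particle, rose by 0.73 ± 0.13 (adjusted p = 0.0062) and Utp18 by 1.15 ± 0.24 (adjusted p = 0.011), and the large-subunit factors Ppan and Ddx56 rose by 1.23 and 0.54 (adjusted p = 0.0084 and 0.011). The smallest p in each list at 5 days belonged to Nol7 and Gnl2, with -1.07 and -0.65 (adjusted p = 0.0038 and 0.0048).

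Of 9 measured other Pol I subunits and factors 3 rose (Polr1d, Ubtf and Taf1d) and 1 fell at 1 day in FFFF hearts, and 0 rose and 1 fell in each of the other 3 comparisons with sham. The one that fell was Taf1a, a subunit of the Pol I promoter selectivity factor. It read 7.39, 7.40 and 7.27 after sham, 6.01, 6.65 and 6.40 at 1 day and 6.46, 6.13 and 5.82 at 5 days in FFFF hearts. Both days were below sham without overlap (-0.997 ± 0.196 and -1.21 ± 0.20, adjusted p = 0.0084 and 0.0019), and in DKO hearts the differences were -0.72 and -0.84 (adjusted p = 0.049 and 0.026). Without the library labelled DKO 1 day replicate 1 the former was -0.83 and did not pass (adjusted p = 0.093). Of all features 5.93% rose and 5.79% fell at 1 day in FFFF hearts, and 10% fell at 5 days. In DKO hearts 2.54% of all features fell at 1 day and 2.84% at 5 days. Ubtf, which binds ribosomal DNA, rose by 0.38 ± 0.09 at 1 day in FFFF hearts (adjusted p = 0.016).

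Of 13 genes of the RNA exosome, which trims precursor RNA, 4 rose at 1 day in FFFF hearts, where 5.93% of all features rose. These were Exosc6, Mphosph6, Exosc1 and the nuclease Dis3 (the last pair with 0.83 and 0.88, adjusted p = 0.0073 and 0.0094). At 5 days 1 fell in FFFF hearts, the nuclease Exosc10 (-0.61, adjusted p = 0.0056), where 10% of all features fell, a share near that of the list. In DKO hearts 3 rose at 1 day, where 2.58% of all features rose. Without the library labelled DKO 1 day replicate 1 this was 1, against 0.437%. Ribosomal proteins of the cytosol were measured for 57 of 79 genes of the list, and many have near-identical pseudogenes, so their values are uncertain. Of these 57, 15 rose at 1 day in FFFF hearts, where 5.93% of all features rose, with Rplp1 at 0.78 and Rpl17 at 0.75 (adjusted p = 0.0098 and 0.014). At 5 days 6 rose and 1, Rps16, fell, where 8.26% of all features rose, a share close to that of the list. Rplp1 had the smallest p at 5 days (0.87, adjusted p = 0.0034). In DKO hearts 8 rose at 1 day and 2 at 5 days, where 2.58% and 3.23% of all features rose, and 0 were called at 1 day without the library labelled DKO replicate 1. Of the 74 measured mitochondrial ribosomal proteins, 14 fell and 2 (Mrpl52 and Mrps16) rose at 1 day in FFFF hearts, and 55 fell and none rose at 5 days, with medians of -0.25 and -0.75, against 5.79% and 10% of all features lower. In DKO hearts 2 fell and 2 rose at 1 day (median -0.17), where 2.54% of all features fell and 2.58% rose, shares near those of the list. At 5 days 16 fell and none rose in DKO hearts (median -0.49), where 2.84% of all features fell. Without the library labelled DKO replicate 1, 0 were called at 1 day (median -0.14). The difference between the genotypes was not tested for the list. Mrpl39 and Mrpl34 fell by 0.97 and 0.83 at 1 day (adjusted p = 0.013 and 0.016), and Mrps25 by 0.98 at 5 days (adjusted p = 0.00088).

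**Figure D4:**
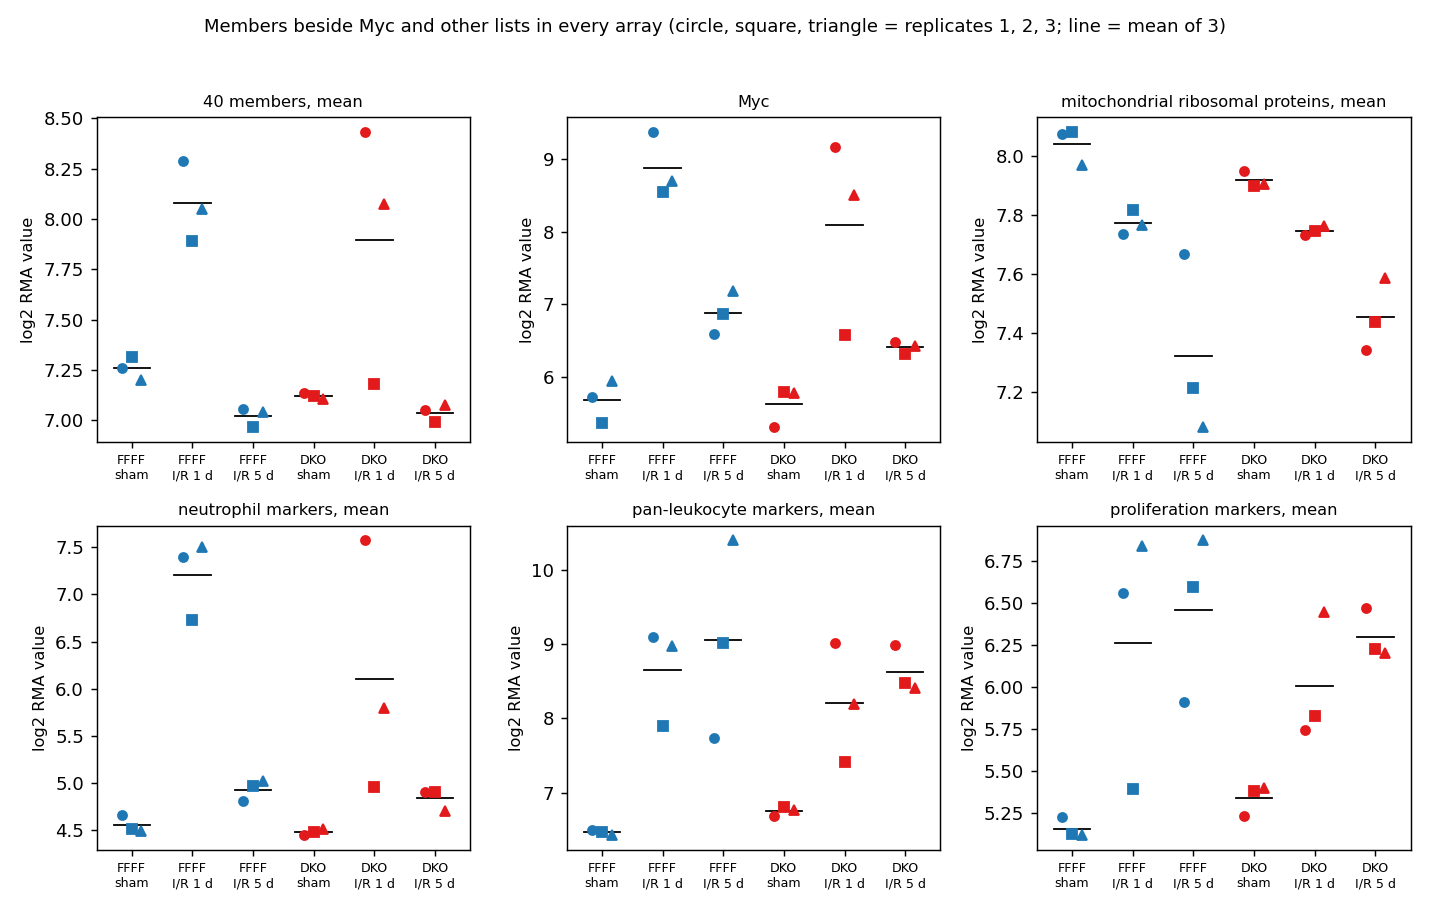
Mean log2 value of the 40 genes, the value of Myc and the mean of 4 other lists in every array, by group (symbols for replicate numbers, line for the group mean). The 40 genes, Myc and the neutrophil list are highest at 1 day and low in DKO replicate 2 at that day, whereas the pan-leukocyte and proliferation lists are also high at 5 days and the mitochondrial ribosomal proteins are lowest at 5 days. In DKO replicate 3 at 1 day the neutrophil mean, 5.80, lies below all FFFF 1 day arrays, while the mean of the 40 genes, 8.08, lies among them.

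Myc itself read 5.73, 5.38 and 5.96 after sham in FFFF hearts, 9.37, 8.55 and 8.70 at 1 day and 6.60, 6.87 and 7.19 at 5 days. It rose by 3.19 ± 0.47 at 1 day (adjusted p = 0.0022), and at 5 days it lay above sham by a difference that did not pass (1.20 ± 0.47, adjusted p = 0.094). In DKO hearts it read 5.32, 5.80 and 5.79, then 9.17, 6.59 and 8.50, then 6.48, 6.33 and 6.43, again with replicate 2 lowest at 1 day (2.45 ± 0.47, adjusted p = 0.013, and 1.91 ± 0.42, adjusted p = 0.057, without the library labelled replicate 1). Of the 11 genes of the Myc network list 2 rose and 1, Mycn, fell at 1 day in FFFF hearts, where 5.93% of all features rose and 5.79% fell. Besides Myc, Mxd1, a partner of Max that opposes Myc, rose by 0.71 ± 0.13 (adjusted p = 0.0067), while Mxd4 differed by 0.71 ± 0.23 at 5 days (adjusted p = 0.050).

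Markers of other cells moved with the groups. The mean of 12 pan-leukocyte markers was 6.43 to 6.51 in FFFF sham arrays, 7.89 to 9.10 at 1 day and 7.74 to 10.39 at 5 days, when the 40 genes were at or under sham. At 1 and 5 days 12 and 11 of the 12 markers rose, where 5.93% and 8.26% of all features rose. The mean of 10 neutrophil markers was 4.49 to 4.66, 6.73 to 7.50 and 4.81 to 5.02, with 9 rising at 1 day and none at 5 days. In the DKO arrays at 1 day the neutrophil mean was 7.57, 4.96 and 5.80, the pan-leukocyte mean 9.02, 7.41 and 8.20 and the cardiomyocyte mean 12.14, 12.64 and 12.18, so replicate 2, lowest for the 40 genes, was also lowest in both leukocyte lists and highest in cardiomyocyte markers. Among the FFFF arrays at 1 day replicate 2 was likewise lowest for the 40 genes and both leukocyte lists and highest in cardiomyocyte markers, with 12.56 beside 11.96 and 12.27. For DKO replicate 3 at 1 day the mean of the 40 genes, 8.08, lay among the FFFF 1 day arrays, but its neutrophil mean lay below all of them. The mean of 16 proliferation markers was 5.12 to 5.23 after sham, 5.40 to 6.84 at 1 day and 5.91 to 6.87 at 5 days in FFFF hearts. In the DKO arrays at 1 day it was 5.74, 5.83 and 6.45, and the mean of 8 myofibroblast markers was 9.51, 9.87 and 10.12. In these lists replicate 1, with the highest mean of the 40 genes, was the lowest, unlike in the leukocyte lists. At 5 days the cardiomyocyte mean was 12.68, 12.11 and 11.65 in FFFF arrays, against 12.72 to 12.82 after sham. In FFFF hearts 4 of the 12 markers fell, where 10% of all features fell. In DKO arrays it was 12.02, 12.36 and 12.49, against 12.75 to 12.80 after sham. In DKO hearts 0 fell, where 2.84% of all features fell. The median differences of the markers were -0.51 in FFFF and -0.38 in DKO hearts. Between the genotypes at 5 days 0 of the 12 were called, and 0 in the 5 day response difference. Polr1a, Rrn3 and the mitochondrial ribosomal mean were lowest in the same arrays, FFFF replicate 3 and DKO replicate 1. The mean of the 40 genes was instead lowest in replicate 2 of both genotypes. The part of these cells in the values of the 40 genes was not tested.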

How the data were processed

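From MoGene 2.0 ST arrays the authors computed and deposited log2 expression by RMA (version not given in the sources used here) with quantile normalization. A custom chip definition file, version 18, assigned the probes to Entrez genes. Each column holds a single array, and the values were used as they stand. Of the 40 genes, 39 took their symbol from the platform table and 1, Npm3, through the gene reference. Groups follow the labels. One linear model of the 6 groups was fitted to all 24479 features with limma 3.58.1 in R 4.3.3, and each comparison is a contrast of it, with eBayes and Benjamini-Hochberg adjustment over all features at 0.05. It was tested on simulated data. The ± values are standard errors of the fit. The number of arrays limits the precision.

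The rule for the 40 genes uses symbols and no measured value, but these genes and all gene lists were chosen with earlier results of these data known. Genes were named by a rule per role, taking those with the smallest p in each comparison and the extremes at 1 day, and the remaining members were added so that all 40 are accounted for. Promoter windows are from RefSeq, build GRCm38.p6. Alternatives were array weights, an intensity trend with robust moderation, gene-wise analysis of variance, the compared groups alone, a threshold of 0.01, a filter on low values, median centring, sex, the replicate number as a block and each array left out in turn. At 1 day, same-numbered DKO and FFFF arrays correlated in their deviations from the group means by 0.382, 0.529 and 0.36. On this ground they were treated as pairs for that day. The pairing comes from the values alone and is not named in the labels. In the other comparisons same-numbered arrays did not all correlate in this way.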

Additional observations from a re-analysis of the deposited data

How the results depend on the processing

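The median differences of the 40 genes kept their direction under all alternatives except in 3 comparisons of the genotypes. Arrays left out in turn gave -0.49 to 0.20 between the genotypes at 1 day, -0.03 to 0.04 between them at 5 days, and -0.34 to 0.32 for the response difference at 1 day, which was 0.12 with array weights. At 1 day both low ends came without DKO replicate 1, the library that goes against its label. Both high ends came without DKO replicate 2, with that library kept. Left-out arrays gave medians of 0.47 to 1.06 for DKO 1 day against sham and -1.15 to -0.58 for DKO 5 days against 1 day. The counts of called genes were less stable. Leaving out arrays gave 1 to 28 for FFFF 1 day against sham, 4 to 36 for FFFF 5 days against 1 day, 1 to 11 for FFFF 5 days against sham, 0 to 34 for DKO 1 day against sham, 3 to 36 for DKO 5 days against 1 day and 0 to 2 for DKO 5 days against sham. Array weights, which give uneven arrays less weight, gave 28 for DKO 1 day against sham, 35 for DKO 5 days against 1 day, 4 for DKO and 11 for FFFF 5 days against sham. The gene-wise analysis of variance gave 12 and 2 at 1 day and 21 and 10 from 1 to 5 days in FFFF and DKO, and a threshold of 0.01 gave 2 and 0, then 3 and 1, with 1 for FFFF 5 days against sham. The compared groups alone gave 0 for DKO 1 day against sham, 14 and 0 from 1 to 5 days in FFFF and DKO, and 7 (2 higher, 5 lower) for DKO 5 days against sham. Sex as a covariate gave 8 and 2 from 1 to 5 days. The filter kept all 40 genes among 16091 features.

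With the replicate number as a block, 20 genes were called for FFFF 1 day against sham and 13 for DKO, 33 and 18 from 1 to 5 days, 3 and 0 at 5 days against sham and 0 between the genotypes, also with the 1 day groups fitted alone. Single genes near 0 changed sign: Fbl at 5 days in FFFF hearts (0.135 with array weights, 0.021 without FFFF 5 day replicate 3, and -0.368 to 0.089 over all left-out arrays, highest without FFFF sham replicate 2), Rrn3 at 1 day in FFFF hearts (-0.048 to 0.0016, highest without FFFF sham replicate 1) and Ncl in the response difference at 1 day (-0.455 to 0.044, highest without DKO 1 day replicate 2). The cause of these shifts was not tested.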

Other observations

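Genes of the p53 and nucleolar stress list, which responds when ribosome assembly fails, were not described above. Of its 10 genes 3 rose (Trp53, Cdkn1a and Bax) and 1 fell (Ccng1) at 1 day in FFFF hearts, and 1 rose (Cdkn1a) and none fell in DKO hearts. Among all features 5.93% rose and 5.79% fell in FFFF hearts, and 2.58% rose in DKO hearts. Cdkn1a, the cell cycle inhibitor p21, read 8.13, 7.09 and 8.76 after sham, 10.43, 10.70 and 10.22 at 1 day and 8.46, 8.43 and 9.76 at 5 days in FFFF hearts, so that the 1 day arrays lay above all others (2.46 ± 0.45, limma adjusted p = 0.0067). In DKO hearts it read 7.58, 8.79 and 8.11 after sham and 10.54, 9.26 and 10.02 at 1 day, with replicate 2 again lowest (1.78 ± 0.45, adjusted p = 0.041). Without the library labelled DKO 1 day replicate 1, whose targeted genes go against its label, it was 1.48 ± 0.49 and did not pass (adjusted p = 0.17), and 0 of the 10 genes were called. Ccng1, another p53 target, lay the other way, at 12.43, 12.50 and 12.54 after sham and 11.73, 11.95 and 11.94 at 1 day (-0.62 ± 0.12, adjusted p = 0.0073). At 5 days in FFFF hearts 1 of the 10 genes rose (Bax) and 2 fell, where 8.26% of all features rose and 10% fell. Those that fell were Rrm2b, a p53-induced subunit of ribonucleotide reductase, by 0.95 ± 0.25 (adjusted p = 0.018), and Ccng1, by 0.40 ± 0.12 (adjusted p = 0.028). In DKO hearts 0 were called at 5 days.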
